A study of Rattus norvegicus with 325 samples.

Results

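Of 17315 genes listed for rat skeletal muscle, 8 genes are described here across 4 muscles and 7 ages: Klk1c7, Tmem158, Slc51a, Th, Pde6a, Prrt4, Flrt1 and Ctxn3. They were chosen by their own measured values, a far higher RNA level at 27 months than at 6 months in every muscle, so that difference is given below as a description and is not tested. Male Sprague Dawley rats, a laboratory stock with no genetic change or treatment, gave diaphragm, gastrocnemius, soleus and tibialis anterior at 7 ages, of 6, 9 and 12 months and of 18 to 27 months every 3 months. The gastrocnemius and tibialis anterior are mostly fast-fibre muscles of the lower leg, the soleus is a slow postural muscle beside them, and the diaphragm is the main muscle of breathing. Total RNA was sequenced in 325 libraries, 83 of diaphragm, 73 of gastrocnemius, 84 of soleus and 85 of tibialis anterior, with 9 to 13 libraries for each muscle and age.

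The 8 genes belong to no common pathway. Klk1c7 encodes a serine protease of the tissue kallikrein family, which is large in rats and best known from salivary gland. Th encodes tyrosine hydroxylase, the rate-limiting enzyme of catecholamine synthesis in sympathetic neurons and adrenal medulla. Pde6a encodes the alpha subunit of the cyclic GMP phosphodiesterase of rod photoreceptors. Slc51a encodes the alpha subunit of the organic solute transporter, which moves bile acids and steroids across cell membranes together with its beta partner Slc51b. Flrt1 encodes a membrane protein with leucine-rich repeats that binds latrophilins and Unc5 guidance receptors. Tmem158 encodes a membrane protein first found as a gene induced by oncogenic Ras during cell senescence, and Prrt4 and Ctxn3 encode small or little-studied membrane proteins of the proline-rich transmembrane and cortexin families. When a muscle fibre loses its nerve, it switches on the foetal gamma subunit and raises the other subunits of the acetylcholine receptor, together with Musk, Ncam1, Myog and Runx1, and this programme is known to appear in old muscle.

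RefSeq (assembly GRCr8) gave an upstream sequence for 6 of the 8 genes, all but Klk1c7 and Prrt4. The 250 bases before the start of transcription were searched on both strands for CANNTG, the E-box bound by MyoD and myogenin, for its subset CAGCTG, for TGACGTCA, the full cyclic AMP response element, and for TATAAA. Of 33469 upstream windows of that length, 65.5% held CANNTG, 12.0% CAGCTG, 1.59% TGACGTCA and 12.9% TATAAA. The windows printed are those of Th, which held the only TGACGTCA, of Slc51a, which held 2 CANNTG matches, and of Tmem158, whose pattern over muscle and age was the nearest to that of Slc51a among the 8. They are written 5′ to 3′ along the gene, and capitals mark matches to CANNTG or TGACGTCA.
Th, chr1:207508219-207508468, minus strand: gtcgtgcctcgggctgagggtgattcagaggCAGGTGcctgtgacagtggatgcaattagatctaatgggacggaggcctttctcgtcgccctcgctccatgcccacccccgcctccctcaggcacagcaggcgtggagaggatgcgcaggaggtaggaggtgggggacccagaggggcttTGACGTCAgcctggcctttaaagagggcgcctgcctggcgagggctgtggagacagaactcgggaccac
Slc51a, chr11:81803891-81804140, plus strand: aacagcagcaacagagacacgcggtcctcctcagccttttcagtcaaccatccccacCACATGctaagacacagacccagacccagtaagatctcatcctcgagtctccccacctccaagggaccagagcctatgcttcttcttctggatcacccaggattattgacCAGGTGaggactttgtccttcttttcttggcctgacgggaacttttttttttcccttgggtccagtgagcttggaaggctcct
Tmem158, chr8:131792136-131792385, minus strand: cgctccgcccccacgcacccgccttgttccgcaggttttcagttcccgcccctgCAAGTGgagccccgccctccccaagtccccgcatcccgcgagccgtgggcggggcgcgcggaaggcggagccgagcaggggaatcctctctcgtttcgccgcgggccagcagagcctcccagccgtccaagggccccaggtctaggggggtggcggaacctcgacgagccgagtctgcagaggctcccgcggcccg
The cyclic AMP response element of Th began 69 bases upstream, and no other of the 6 windows held that motif. CANNTG stood once in the Th, Tmem158 and Pde6a windows, at 219, 196 and 116 bases upstream, and 2 times in that of Slc51a, at 193 and 83 bases. The windows of Flrt1 and Ctxn3 held none of the 4 motifs, and none of the 6 held CAGCTG or TATAAA. The GC content was 64.0% for Th, 52.0% for Slc51a and 73.6% for Tmem158, beside a median of 51.2% over all windows.

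Each library held 17555294 to 85316329 counts, and levels are given as CPM, counts set to a common library total and corrected by TMM for differences in library composition. CPM does not correct for gene length, so levels are compared between libraries and not between genes. The 9 listed of 10 markers of skeletal muscle fibre were above 0 in all 325 libraries. Each age was collected on a single day, and age cannot be told apart from that day. By the authors' count each library of a muscle came from a different animal. Which libraries of different muscles came from the same animal was not given. P-values measure the spread between these libraries. The numbers in the sample names run in separate series: the gastrocnemius has its own, and another series holds the 12-month libraries of the other muscles and 1 library each of diaphragm, soleus and tibialis anterior at 21 months. In bulk tissue, fewer cells of a type and less RNA per cell cannot be told apart. In 8 libraries expression stood apart from the rest of their group, 4 of them at 24 or 21 months: gastrocnemius 24 months replicate 0, soleus 24 months replicate 6, tibialis anterior 24 months replicate 6 and tibialis anterior 21 months replicate 7. Tibialis anterior 21 months replicate 7 was the highest library of its group for all 8 genes, and tibialis anterior 24 months replicate 6 was the highest for 6.

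At 27 months the fitted log2 difference from 6 months ran from 1.01 ± 0.19 (SE) for Ctxn3 in the diaphragm to 7.23 ± 1.65 for Klk1c7 in the soleus. Klk1c7 stood between 5.10 and 7.23 in the 4 muscles and had the largest mean difference of the 11517 genes tested in all of them. The other 7 genes ranked 5, 6, 7, 8, 9, 12 and 13 on that mean, from 4.79 for Tmem158 to 3.85 for Ctxn3. Genes that were not chosen but ranked among them included Chrng (5.07), Krt18 (5.03), Mt1a (4.04) and Cdkn1a (4.03), and the next gene down was Sln (3.83). Ranked by the smallest of the 4 differences instead, Klk1c7 and Th came 1 and 2, whereas Ctxn3 came 68. In the diaphragm 4 of the 8 differences were the smallest of any muscle by more than 2 units: Tmem158 1.75, Slc51a 2.0, Pde6a 2.18 and Ctxn3 1.01. All of these values chose the genes and are descriptive.

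**Figure D1:**
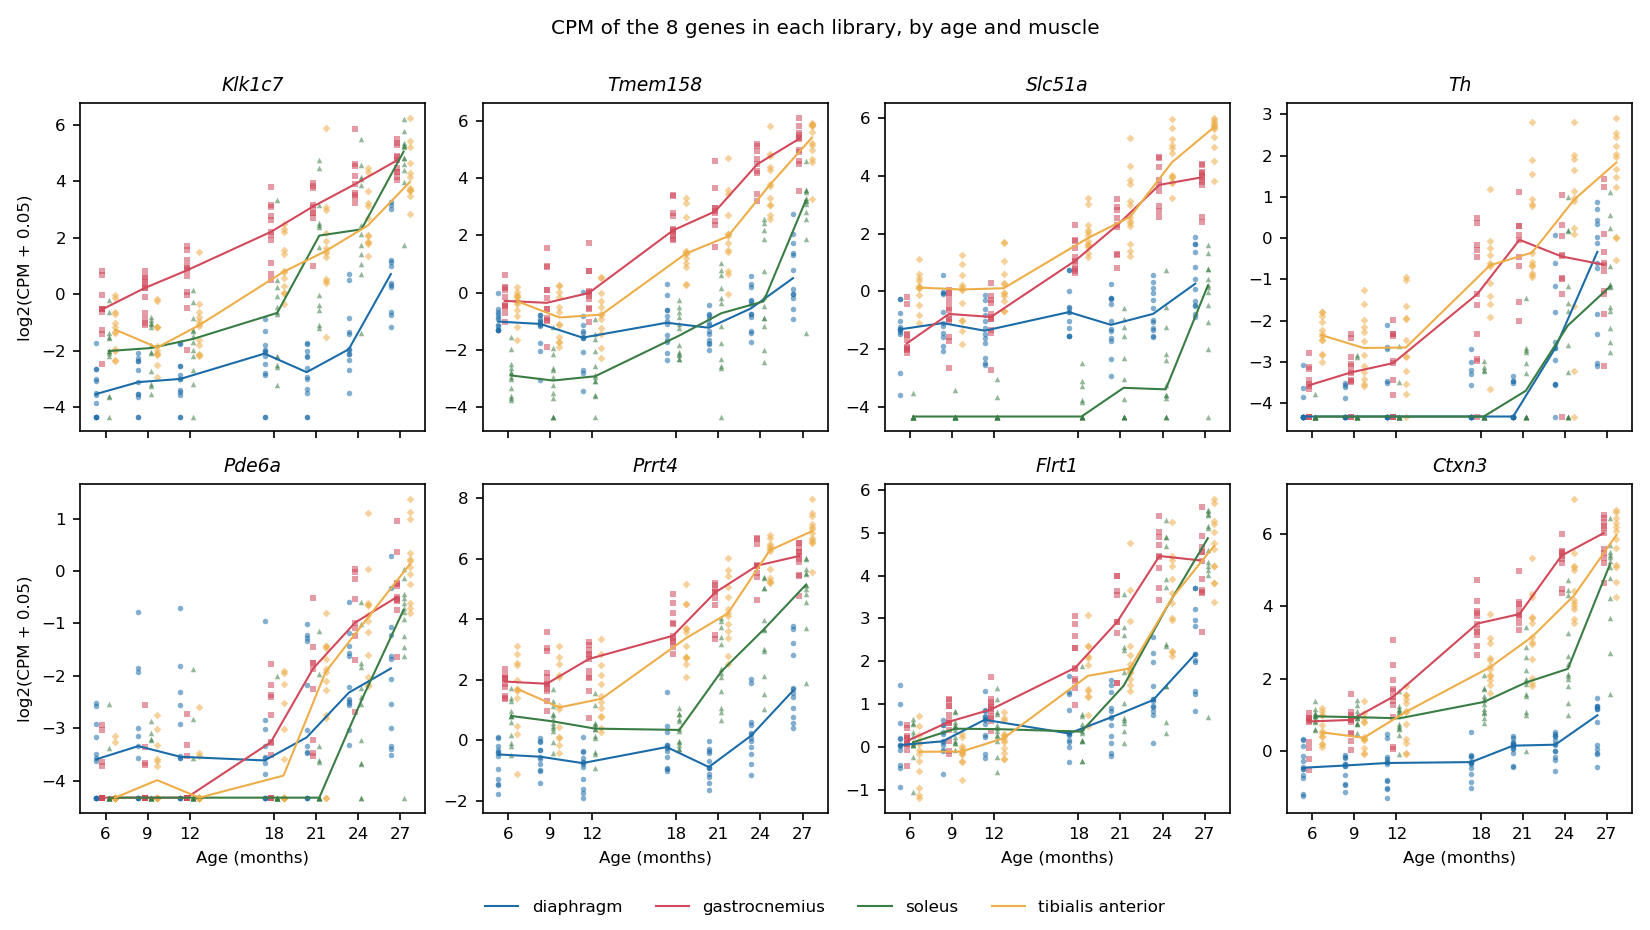
Each point is 1 library, with age in months on the x axis and log2(CPM + 0.05) on the y axis of each panel, lines join the medians of each age and colours mark the muscle, set slightly apart at each age. The gastrocnemius and tibialis anterior medians climb from 18 months, the soleus follows at 21 to 27 months, and the diaphragm stays lowest or next to lowest at 27 months for every gene but Th.

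Whether the 8 genes moved before 27 months was tested on libraries of 9 to 24 months alone. The difference between 27 and 6 months did not use these libraries. Trends over all ages were also known when the genes were chosen, so tests on these libraries are not fully independent of the choice. For each muscle, limma-voom compared 18 with 9 months, 24 with 9 months and 24 with 21 months over 11598 to 11950 genes. A gene was called where its Benjamini-Hochberg adjusted p was below 0.05 and its change above 1.5-fold.

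Klk1c7 was low at 9 months, with a median between 0.0662 and 1.12 CPM in the 4 muscles, and rose by 24 months in the 3 muscles in which it was tested, gastrocnemius, soleus and tibialis anterior. In the gastrocnemius its CPM was 0.422, 1.12 and 1.71 (lowest, median and highest of 12 libraries) at 9 months and 9.29, 14.9 and 56.9 (9 libraries) at 24 months. The 2 ages did not overlap, and the log2 change was 4.20 ± 0.47 (SE, 18.4-fold, limma-voom adjusted p = 1.38e-10). Its CPM in the tibialis anterior was 0.0828, 0.221 and 0.832 at 9 months and 2.54, 5.35 and 22.3 at 24 months, again without overlap (12 libraries each, log2 change 4.68 ± 0.90, limma-voom adjusted p = 1.62e-05). The soleus was far more uneven. Its 9-month CPM was 0.0374, 0.218 and 0.518 and its 24-month CPM 0.340, 4.87 and 44.7, with 11 of 12 libraries above the highest of 9 months (log2 change 4.65 ± 1.48, limma-voom adjusted p = 0.0118). Klk1c7 passed the count filter in the soleus and tibialis anterior only through older libraries, so those calls are not support in themselves. In each of these muscles 5 of 12 libraries were over the filter's cut at 9 months and 12 of 12 at 24 months. In the diaphragm too few libraries reached the count filter, and the medians were 0.0662 CPM at 9 months, 0.210 at 24 months and 1.59 at 27 months. Fitted without a filter, the diaphragm change from 9 to 24 months was 2.08 ± 0.58 (limma-voom adjusted p = 0.0313). Klk1c7 has near-identical neighbours in the rat genome, so reads from other kallikreins counted there cannot be told apart. The 17 other kallikrein lines in the files summed to 1391 counts over all libraries against 65265 for Klk1c7, and the highest group median among them was 0.162 CPM.

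Th also rose between 9 and 24 months in both fast limb muscles, where 9-month medians were 0.0549 and 0.108 CPM. It passed the filter there only through older libraries. At 9 months 0 of 12 libraries (gastrocnemius) and 1 of 12 (tibialis anterior) were over the filter's cut. In the tibialis anterior its CPM was 0.0333, 0.108 and 0.370 at 9 months and 0.00, 1.86 and 7.03 at 24 months. A single 24-month library lay at 0, 9 of 12 lay above the highest of 9 months, and the log2 change was 3.20 ± 0.94 (9.21-fold, limma-voom adjusted p = 0.00320). The gastrocnemius stood at 0.00, 0.0549 and 0.151 CPM at 9 months and 0.00, 0.685 and 2.0 at 24 months, with 8 of 9 libraries above the highest of 9 months (log2 change 3.08 ± 0.76, limma-voom adjusted p = 0.000585). From 21 to 24 months Th differed by -0.22 (95% interval -1.26 to 0.83) in the gastrocnemius and by 0.11 (-0.90 to 1.11) in the tibialis anterior, neither called. In the diaphragm and soleus the median was 0 CPM at 9 months, and Th passed the filter in neither. There the summed counts were 5 at 9 months against 99 (diaphragm) and 165 (soleus) at 24 months, ratios per depth of 20.5 (exact Poisson 95% interval 8.51 to 64.6) and 36.9 (15.5 to 115). Such intervals cover counting error only. Without a filter the log2 changes were 2.67 ± 0.55 (diaphragm, limma-voom adjusted p = 0.00170) and 2.77 ± 0.66 (soleus, limma-voom adjusted p = 0.00103).

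Pde6a reached at most 2.53 CPM in any library and was called in the gastrocnemius. It passed the filter there only through older libraries, so that call is not support in itself. At 9 months 0 of 12 libraries were over the filter's cut, and at 24 months 7 of 9. In the gastrocnemius it went from 0.00, 0.00 and 0.120 CPM at 9 months to 0.105, 0.455 and 0.978 at 24 months, where 8 of 9 libraries exceeded the highest of 9 months (log2 change 4.21 ± 0.51, 18.6-fold, limma-voom adjusted p = 1.53e-09). It missed the filter in the other muscles. Without it, the tibialis anterior change was 3.95 ± 0.49 (limma-voom adjusted p = 1.23e-09) and the soleus change 1.97 ± 0.57 (limma-voom adjusted p = 0.00652). The diaphragm value of 1.78 ± 0.64 was not called (limma-voom adjusted p = 0.131). Diaphragm was also the muscle with the highest 9-month library, 0.530 CPM, and its ages overlapped at every step, up to 1.17 CPM at 27 months.

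Slc51a rose in both fast limb muscles, and its diaphragm change was not called. Tibialis anterior CPM was 0.236, 0.999 and 2.35 at 9 months and 9.31, 22.1 and 61.8 at 24 months (log2 change 4.92 ± 0.61, 30.3-fold, limma-voom adjusted p = 9.56e-10). The gastrocnemius went from 0.111, 0.533 and 0.979 CPM to 5.97, 12.8 and 25.3 (log2 change 4.66 ± 0.42, 25.3-fold, limma-voom adjusted p = 2.60e-13). In neither muscle did the ages overlap. Slc51a passed the count filter in the tibialis anterior only through older libraries, with 11 of 12 over its cut at 9 months. In the diaphragm the 9-month CPM of 0.189, 0.419 and 1.43 and the 24-month CPM of 0.282, 0.535 and 1.44 covered nearly the same range, and the change of 0.27 ± 0.35 was not called (95% interval -0.42 to 0.96, limma-voom adjusted p = 0.805). In the soleus the gene was all but undetected at first, with 2 counts over the 12 libraries of 9 months against 93 at 24 months, a ratio per depth of 52.0 (exact Poisson 95% interval 14.0 to 436). Such an interval covers counting error only, and the 24-month soleus libraries were uneven. Of 12, 3 were at 0 and 6 lay above the highest of 9 months. The highest, replicate 6, stood apart and reached 0.71 log2 CPM. Without a filter the log2 change was 2.42 ± 0.64 (limma-voom adjusted p = 0.00318). Slc51a reached a median of 1.10 CPM in the soleus at 27 months. Its partner Slc51b has no line in the files.

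Flrt1 was called in all 4 muscles. The gastrocnemius held 0.841, 1.45 and 2.13 CPM at 9 months and 10.7, 21.9 and 42.1 at 24 months (log2 change 3.99 ± 0.32, 15.9-fold, limma-voom adjusted p = 9.55e-15). In the tibialis anterior the values were 0.531, 0.878 and 1.18 CPM and 4.28, 11.1 and 38.0 CPM (log2 change 3.79 ± 0.52, limma-voom adjusted p = 1.29e-08). The ages did not overlap in either. Soleus libraries spread from 1.19 to 39.3 CPM at 24 months (median 9.25), beside 0.898 to 1.73 (median 1.29) at 9 months, a log2 change of 2.60 ± 0.62 (limma-voom adjusted p = 0.000826). Diaphragm CPM rose from 0.600, 1.04 and 1.49 to 1.02, 2.09 and 5.87 (log2 change 1.10 ± 0.24, 2.14-fold, limma-voom adjusted p = 0.00213), with 11 of 12 libraries above the highest of 9 months.

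Ctxn3 was the other gene called in all 4 muscles with the count filter, and the fit with no filter also called Klk1c7 and Th in all 4. The gastrocnemius went from 0.981, 1.77 and 2.95 CPM to 20.8, 42.4 and 64.6 without overlap (log2 change 4.51 ± 0.30, 22.8-fold, limma-voom adjusted p = 1.39e-17). The tibialis anterior went from 0.898, 1.25 and 2.56 CPM to 11.7, 19.8 and 125 without overlap (4.25 ± 0.52, limma-voom adjusted p = 7.04e-10), and the value of 125 came from replicate 6, the library that stood apart. Without the libraries that stood apart the tibialis anterior change was 4.04. The soleus held 1.37, 1.87 and 2.64 CPM at 9 months and 1.96, 4.80 and 26.3 at 24 months (1.76 ± 0.37, 3.39-fold, limma-voom adjusted p = 0.000148). The diaphragm stayed within 0.410 and 1.41 CPM over both ages, with a change of 0.68 ± 0.16 (1.61-fold, limma-voom adjusted p = 0.00594).

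Tmem158 rose in the 3 limb muscles by 24 months. It held 0.219, 0.731 and 2.91 CPM in the gastrocnemius at 9 months and 9.21, 22.2 and 36.1 at 24 months (log2 change 4.66 ± 0.41, 25.3-fold, limma-voom adjusted p = 1.55e-13). In the tibialis anterior the CPM was 0.217, 0.498 and 1.14, then 5.90, 13.5 and 56.1 (4.94 ± 0.70, 30.7-fold, limma-voom adjusted p = 3.81e-08). Neither muscle had a 24-month library within the 9-month range. The soleus began lower, at 0.00, 0.0694 and 0.387 CPM, and held 0.136, 0.759 and 5.92 at 24 months (4.01 ± 0.93, limma-voom adjusted p = 0.000575). In the tibialis anterior and soleus Tmem158 passed the count filter only through older libraries, so those calls are not support in themselves. At 9 months 8 of 12 libraries (tibialis anterior) and 1 of 12 (soleus) were over the filter's cut, and at 24 months 12 of 12 and 10 of 12. Diaphragm medians were 0.419 and 0.632 CPM, and the difference of 0.80 ± 0.31 was not called (limma-voom adjusted p = 0.154).

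Prrt4 rose in the 3 limb muscles. In the tibialis anterior its CPM went from 0.694, 2.07 and 8.65 to 36.9, 77.7 and 111 (log2 change 4.96 ± 0.50, 31.1-fold, limma-voom adjusted p = 1.94e-12). The gastrocnemius held 1.88, 3.59 and 12.0 CPM at 9 months and 24.8, 54.6 and 103 at 24 months (3.77 ± 0.30, limma-voom adjusted p = 9.87e-15). The ages did not overlap in these muscles. Soleus CPM was 0.688, 1.49 and 3.17, then 1.98, 12.6 and 42.2 (2.97 ± 0.60, limma-voom adjusted p = 8.47e-05). In the diaphragm it was 0.322, 0.635 and 1.01, then 0.40, 1.05 and 4.04, and the change of 0.82 ± 0.29 was not called (limma-voom adjusted p = 0.106). That call turned on the fit: the change was 0.94 and called without diaphragm 24 months replicate 11 (limma-voom adjusted p = 0.0465). It was also called without diaphragm 18 months replicate 11, which stood apart (limma-voom adjusted p = 0.0414), and by edgeR and DESeq2.

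By count, 24 against 9 months called 8 of 8 genes tested in the gastrocnemius (9.19% of all genes tested there were called higher), 7 of 7 in the tibialis anterior (8.37%), 5 of 5 in the soleus (2.97%) and 2 of 5 in the diaphragm (0.917%). These counts are not support in themselves, since several genes passed the filter only through their older libraries. Libraries of 9 months alone would have kept 6 of the 8 in the gastrocnemius (all but Th and Pde6a). They would have kept 3 each in the tibialis anterior and soleus (Prrt4, Flrt1 and Ctxn3), and 2 in the diaphragm (Flrt1 and Ctxn3). Calls on the other genes tested carry the same limit. With no filter, which keeps all 8 everywhere, 8 were called in each limb muscle (beside 8.82% of all genes in gastrocnemius, 7.83% in tibialis anterior and 2.61% in soleus) and 4 in the diaphragm (0.779%). At 24 months every library lay above every 9-month library for 6 genes in the gastrocnemius (3.53% of genes tested) and 6 in the tibialis anterior (4.33%), for none of the 5 tested in the diaphragm (0.126%) and for none of the 5 in the soleus (0.661%). The median log2 change of the genes tested was 0.80, 4.21, 2.97 and 4.68 in diaphragm, gastrocnemius, soleus and tibialis anterior, beside -0.00, 0.00, -0.00 and 0.01 over all genes. Scaling by total counts instead of TMM moved the median of all genes by 0.22 in the gastrocnemius and 0.16 in the tibialis anterior and changed no call between ages on the 8.

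At 18 months calls were made in the fast limb muscles, although a difference between muscles at that age was not itself tested. Between 9 and 18 months 6 genes, Klk1c7, Tmem158, Slc51a, Prrt4, Flrt1 and Ctxn3, were called in the gastrocnemius (1.86% of all genes called higher), from 1.53 for Flrt1 (limma-voom adjusted p = 0.00448) to 2.83 for Ctxn3 (limma-voom adjusted p = 1.21e-08). The same 6 were called in the tibialis anterior (2.19%), from 1.86 for Flrt1 (limma-voom adjusted p = 0.00823) to 2.88 for Klk1c7 (limma-voom adjusted p = 0.0164). Klk1c7, Tmem158 and Slc51a passed the tibialis anterior filter only through older libraries, so that count is not support in itself. Th missed the threshold in both fast limb muscles, at 2.16 (limma-voom adjusted p = 0.0764) and 1.83 (limma-voom adjusted p = 0.165), and so did Pde6a at 1.44 in the gastrocnemius (limma-voom adjusted p = 0.155). These misses depended on the filter and the tool. The fit with no filter called Th in the gastrocnemius, at 2.21 (limma-voom adjusted p = 0.0365), which made 7 genes there and 6 in the tibialis anterior. Of the genes tested, edgeR called 7 of 8 in the gastrocnemius and 7 of 7 in the tibialis anterior, and DESeq2 8 of 8 and 7 of 7. At 18 months no gene was called by limma-voom in the diaphragm (0.48%) or the soleus (1.5%). At an unadjusted p below 0.05 the counts there were 0 and 1, edgeR called 0 and 1 and DESeq2 0 and 2. The largest of these values was 2.22 ± 1.02 for Tmem158 in the soleus.

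Further calls were made between 21 and 24 months. Several of the genes passed the filter only through older libraries, so these counts are not support in themselves. In the gastrocnemius 7 genes were called (4.05% of all genes called higher), with changes of 1.10 for Klk1c7 to 1.53 for Slc51a, and Th was the exception. In the tibialis anterior 6 were called (2.74%), from 1.21 for Klk1c7 to 1.84 for Tmem158. That of Klk1c7 was 0.15 with edgeR and 0.14 with DESeq2, and neither called it. Its highest library at 21 months, 58.8 CPM, was replicate 7, which stood apart, and the change was 1.36 without the libraries that stood apart. The soleus had 2 called (0.536%), Flrt1 at 1.46 (limma-voom adjusted p = 0.0397) and Prrt4 at 1.19 (limma-voom adjusted p = 0.0413), and neither was called without soleus 24 months replicate 6. In the diaphragm limma-voom called none (0.0337%), 3 had an unadjusted p below 0.05, and edgeR and DESeq2 each called 1. Prrt4 had the largest change there, 1.12 ± 0.32 (limma-voom adjusted p = 0.222).

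**Figure D2:**
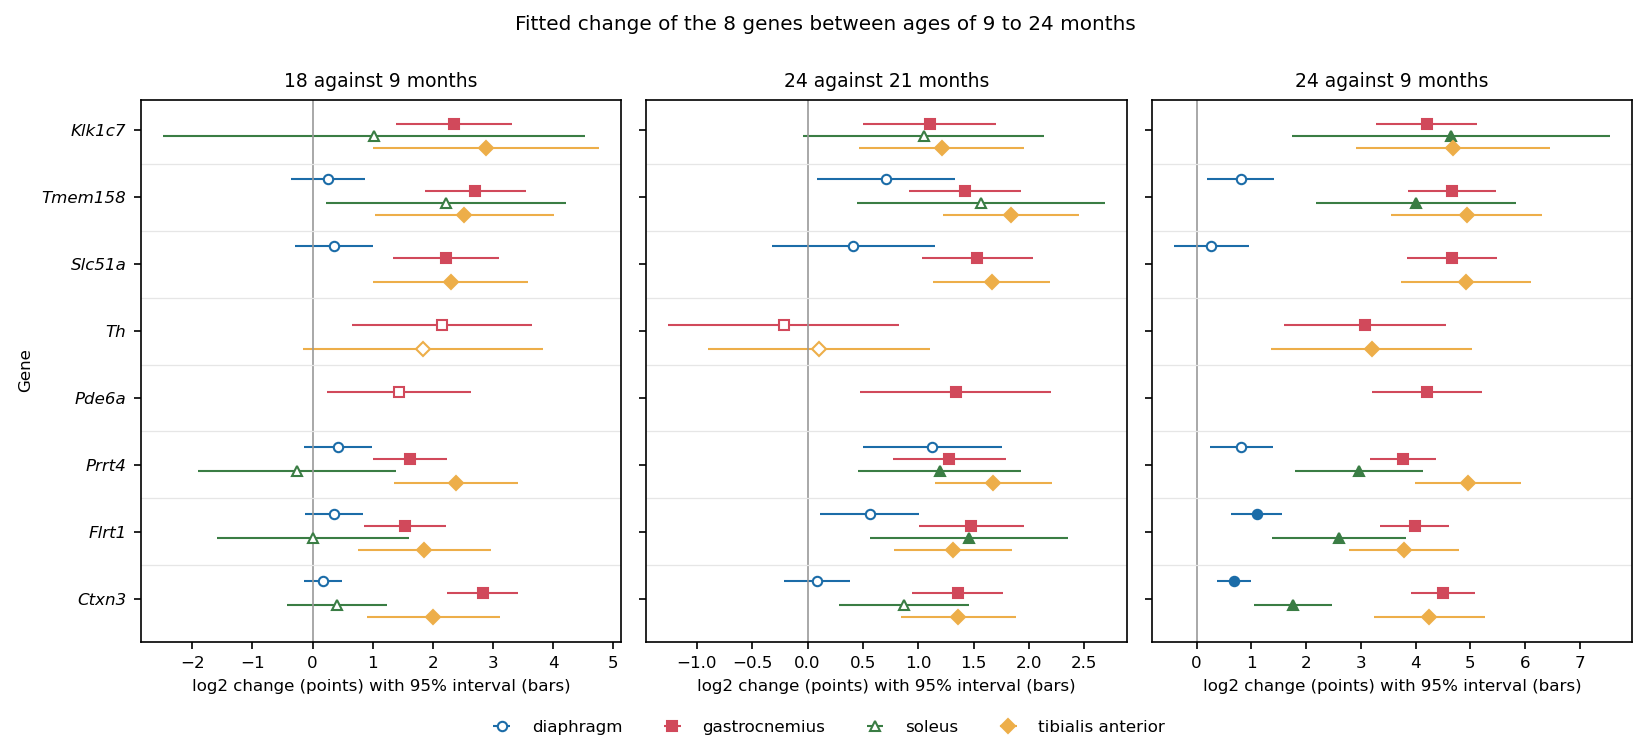
Log2 changes of the 8 genes (rows) from 9 to 18, 21 to 24 and 9 to 24 months (panels), with the 95% interval as bars, colours for the muscle, filled points for called changes and hollow points for tested changes that were not called. Gastrocnemius and tibialis anterior points sit between 3.08 and 4.96 in the panel of 24 against 9 months, and the diaphragm points between 0.27 and 1.10.

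The age at which a gene's median first exceeded the highest 9-month library of its muscle set the muscles in a similar order. It was 18 months for 7 of the 8 genes in the tibialis anterior and 21 months for Pde6a. In the gastrocnemius Klk1c7 passed that mark at 12 months, 5 genes at 18 months and Pde6a and Prrt4 at 21 months. In the soleus Klk1c7 passed it at 18 months, 5 genes at 21 months, and Th and Pde6a at 24 months. The diaphragm was late for most: Flrt1 passed at 12 months, Ctxn3 at 21 months and 4 genes at 24 months, and Slc51a and Pde6a did not pass at any age. Flrt1 did not stay above the mark there, with 7 of 12 libraries above it at 12 months, 4 at 18 months and 7 at 21 months. The diaphragm libraries of 12 months also carry a separate number series. Counted by library, the median number of the 8 genes above that mark at 24 months was 8 in both gastrocnemius and tibialis anterior, 6 in the soleus and 4.5 in the diaphragm. At 18 months these medians were 6 (gastrocnemius), 6.5 (tibialis anterior), 1 (soleus) and 1 (diaphragm). The mark itself, the highest of 11 or 12 libraries, differs between genes and was not tested.

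**Figure D3:**
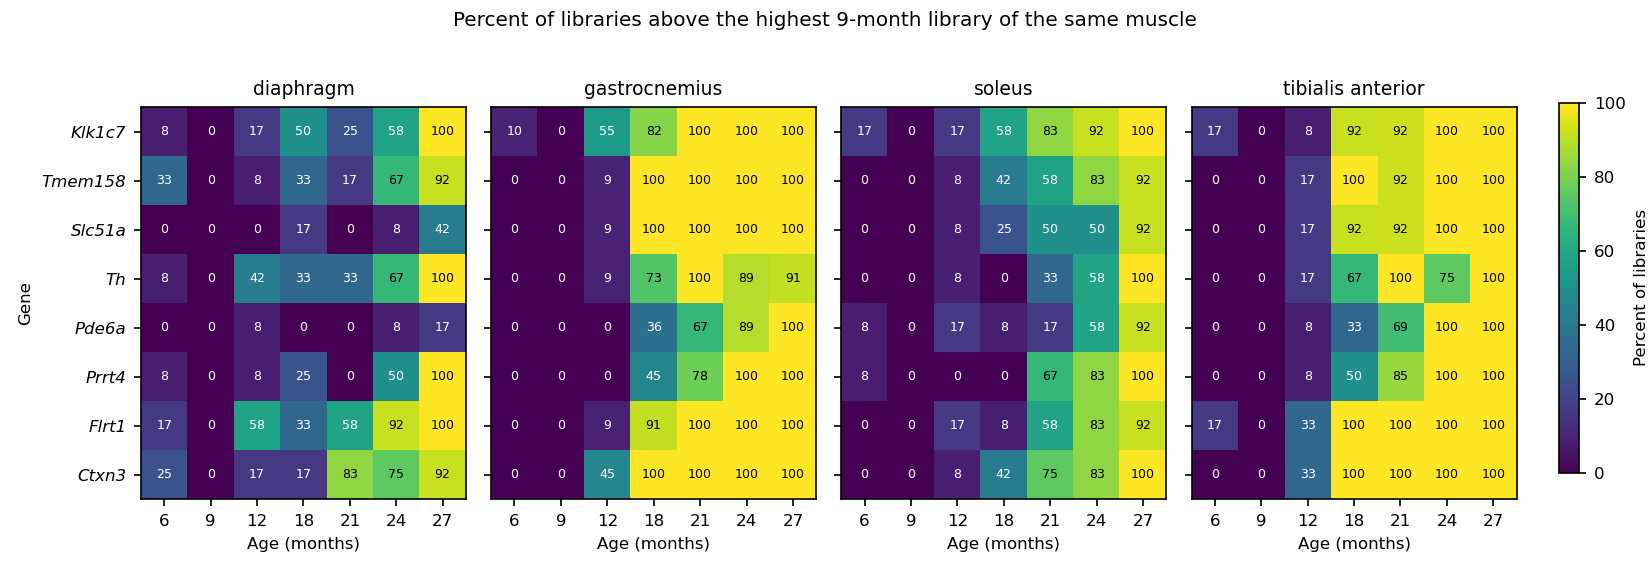
Percent of libraries of each age (columns, months) above the highest 9-month library of the same muscle, for each gene (rows) and muscle (panels), on a colour scale from 0 to 100 percent that is also printed in each cell. The gastrocnemius and tibialis anterior fill from 18 months, the soleus from 21 months, and the diaphragm rows of Slc51a and Pde6a stay below 50 percent at 27 months.

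From 24 to 27 months, given as description since the 27-month libraries chose the genes, the muscles went different ways. In the soleus all 8 differences were large, from 1.39 for Prrt4 to 3.22 for Slc51a. In the gastrocnemius they lay between -0.31 for Flrt1 and 0.71 for Tmem158. The tibialis anterior stood between, at 0.85 for Slc51a to 1.46 for Klk1c7, and the diaphragm reached 2.51 for Klk1c7 but -0.05 for Pde6a. The soleus median of Ctxn3 went from 4.80 CPM at 24 months to 35.9 at 27 months, and that of Flrt1 from 9.25 to 29.2. Gastrocnemius medians of Flrt1 were 21.9 and 20.3 CPM at the same ages.

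Whether the muscles differed in their change from 9 to 24 months was tested in a joint limma-voom fit of the 4 muscles over 12623 genes, in which all 8 genes were tested. Gastrocnemius exceeded diaphragm for 6 of the 8 (10.6% of all genes called in either direction), by 4.40 ± 0.80 for Slc51a (limma-voom adjusted p = 2.35e-06), 3.87 for Tmem158, 3.84 for Ctxn3, 2.96 for Prrt4, 2.91 for Flrt1 and 2.46 for Pde6a. Tibialis anterior exceeded diaphragm for the same 6 (7.07%), by 4.66 ± 0.76 for Slc51a (limma-voom adjusted p = 1.83e-07) down to 2.18 for Pde6a. Klk1c7 and Th were not called in either pair. The tibialis anterior differed from the diaphragm by 2.51 (95% interval -1.09 to 6.11) for Klk1c7 and 0.52 (-1.98 to 3.02) for Th, wide intervals that leave large differences possible. Soleus fell short of gastrocnemius for Ctxn3, by -2.76 ± 0.50 (limma-voom adjusted p = 3.19e-06), and for Pde6a, by -2.35 ± 0.88 (limma-voom adjusted p = 0.0332), 2 of 8 beside 8.11% of all genes. Pde6a passed the filter of the single-muscle fits only in the gastrocnemius, and there through older libraries. In the soleus 0 of 12 libraries at 9 months and 2 of 12 at 24 months were over that filter's cut. Its called differences between muscles rest on low counts and are not support in themselves. Tibialis anterior exceeded soleus for Ctxn3 by 2.50 ± 0.53 (limma-voom adjusted p = 6.64e-05) and for Prrt4 by 2.01 ± 0.64 (limma-voom adjusted p = 0.0110), 2 of 8 beside 8.14%. Between soleus and diaphragm limma-voom called none (3.27%, 3 at an unadjusted p below 0.05), the widest gap being 3.20 for Tmem158 (95% interval 0.67 to 5.72, limma-voom adjusted p = 0.0818). That count depended on how libraries were matched. The joint fit took all libraries as independent, and with same-numbered libraries of an age as a block it called 4 (Tmem158, Prrt4, Flrt1 and Slc51a), from 2.12 to 3.46. Between tibialis anterior and gastrocnemius it called none either (1.7%, 1 at an unadjusted p below 0.05). These last differences ran from -0.29 for Pde6a to 1.20 for Prrt4 (95% interval 0.16 to 2.24, limma-voom adjusted p = 0.122).

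At 9 months between 1 and 3 of the 8 genes were called different in level in each pair of muscles. These were 3 in gastrocnemius against diaphragm (beside 37.2% of all genes, called in either direction), 3 in soleus against diaphragm (22.2%), 2 in tibialis anterior against diaphragm (34.9%), 3 in soleus against gastrocnemius (42.5%), 1 in tibialis anterior against gastrocnemius (17%) and 3 in tibialis anterior against soleus (41.3%). Such counts are near or below the share over all genes and are not a result about the 8, and Bonferroni adjustment left 0 in each pair. The gastrocnemius has its own number series, so its level beside another muscle cannot be told apart from that series. Slc51a was lower in the soleus than in any other muscle, by -4.84 ± 1.33 on the log2 scale against diaphragm, -4.86 ± 1.33 against gastrocnemius and with tibialis anterior 5.51 ± 1.31 higher. These values rest on 2 counts in the soleus and depend on the prior count of the fit. Tmem158 was lowest in the soleus too, by -2.49 against diaphragm, -3.67 against gastrocnemius and with tibialis anterior 2.90 higher. Prrt4 was highest in the gastrocnemius, 2.67 above diaphragm, with soleus at -1.5 and tibialis anterior at -1.07 relative to it, and it was 1.59 higher in tibialis anterior than in diaphragm. Klk1c7 was 3.73 higher in gastrocnemius than in diaphragm, and Th 2.61 and 2.69 higher in tibialis anterior than in diaphragm and soleus. The Th values rest on 5 counts each in diaphragm and soleus, and also depend on the prior count. That of Klk1c7 rests on 39 counts in the diaphragm, and those of Tmem158 on 38 in the soleus. Ctxn3 was 1.29 and 1.45 higher in gastrocnemius and soleus than in diaphragm. Total-count scaling ended both calls of tibialis anterior against diaphragm (Prrt4 at 1.21, Th at 2.21), that of Ctxn3 in gastrocnemius against diaphragm (0.90) and that of Tmem158 in soleus against diaphragm (-2.51). For Flrt1 and Pde6a no pair of muscles was called at 9 months. At 27 months the order of medians was different for Slc51a, with 51.3 CPM in the tibialis anterior, 15.3 in the gastrocnemius, 1.15 in the diaphragm and 1.10 in the soleus. Of the neighbours in that order only gastrocnemius and diaphragm did not overlap. For Klk1c7 the soleus led with 32.9 CPM, then gastrocnemius 26.7, tibialis anterior 15.6 and diaphragm 1.59, and each neighbour in that order overlapped with the next.

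Within the 24-month libraries, where age was fixed, the genes varied together in the limb muscles. The median Spearman rho over the 28 pairs of the 8 genes was 0.81 in the tibialis anterior, 0.72 in the gastrocnemius, 0.58 in the soleus, and lowest, at 0.32, in the diaphragm. At 9 months the same medians were 0.16, 0.23, 0.08 and -0.10. Low counts at 9 months blunt such values, and pairs share libraries, so they are given as a description. No such median was taken over other genes, so the shared variation is not shown to be particular to the 8.

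A denervation score, the mean log2 CPM of 9 genes that include Chrna1, Chrnd, Musk, Ncam1, Myog and Runx1, was set against the genes in the 24-month libraries. Its median went from 3.32 at 9 months to 6.89 at 24 months in the gastrocnemius and from 2.86 to 6.82 in the tibialis anterior, beside 4.26 to 4.90 in the soleus and 3.64 to 3.97 in the diaphragm. In the tibialis anterior (12 libraries) Flrt1 followed it most closely, with Pearson r = 0.97 and Spearman rho = 0.95 (permutation adjusted p = 6.4e-05 and 0.00032 over 32 relations). The others were 0.95 for Slc51a, 0.94 for Tmem158, 0.91 for Pde6a, 0.91 for Prrt4, 0.86 for Klk1c7 and 0.81 for Ctxn3, with rho of 0.80 to 0.93, and all 7 kept an adjusted p below 0.05 without the 2 libraries farthest from the median score. Th did not follow it (r = 0.47, rho = 0.53, permutation adjusted p = 0.155 and 0.0886), although r was 0.67 without the library that stood apart (permutation adjusted p = 0.0200). In that library, replicate 6, Th was 0.272 CPM while 6 of the other genes were at their highest in the group.

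In the gastrocnemius (9 libraries) 7 of the 8 passed, led by Slc51a with r = 0.96 and rho = 0.97 (exact permutation adjusted p = 0.000416 and 0.000882). Flrt1 had 0.90, Ctxn3 0.88, Prrt4 0.84, Tmem158 0.82, Pde6a 0.79 and Klk1c7 0.71, with rho of 0.72 to 0.92, and Th 0.23 (rho 0.25, exact permutation adjusted p = 0.585 and 0.521). The rho of Klk1c7 missed the threshold (exact permutation adjusted p = 0.0536). Without the 2 farthest libraries the relation held for Slc51a (r = 0.96, exact permutation adjusted p = 0.00468) and Tmem158 (0.89, exact permutation adjusted p = 0.00899), and the other 5 missed the threshold over the 7 libraries left, with r from 0.61 for Pde6a (exact permutation adjusted p = 0.18) to 0.76 for Prrt4 (exact permutation adjusted p = 0.102). Fewer libraries also leave less power. Of all genes tested, 9.43% in the gastrocnemius and 11.5% in the tibialis anterior had r above 0.7, beside 7 of the 8 genes in each.

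Soleus scores fell into separate clusters at 24 months, 8 libraries from 4.17 to 5.21 and 4 from 6.13 to 6.44, so no r over all 12 is given. Within the 8 lower libraries Flrt1 (r = 0.93, rho = 0.88) and Klk1c7 (0.92, 0.93) passed (exact permutation adjusted p = 0.0111 for each r, 0.0386 and 0.0357 for rho, over 16 relations), and without the 2 farthest libraries r was 0.79 and 0.90. The other 6 did not pass on r, from -0.08 for Slc51a to 0.81 for Pde6a (exact permutation adjusted p = 0.0836), although the rho of Pde6a, 0.88, did (exact permutation adjusted p = 0.0386). Flrt1 stood at 25.8 to 39.3 CPM in the 4 upper libraries and at 1.19 to 15 in the 8 lower ones, without overlap. The diaphragm also split, into 9 libraries from 3.58 to 4.21 and 3 from 4.74 to 4.97. Within the 9 none of the 8 passed by exact permutation, r running from -0.31 for Slc51a to 0.73 for Flrt1 (exact permutation adjusted p = 0.0970). At an unadjusted p below 0.05 there were 3, Th, Flrt1 and Ctxn3. The gap that separates clusters was chosen after the scores were seen.

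**Figure D4:**
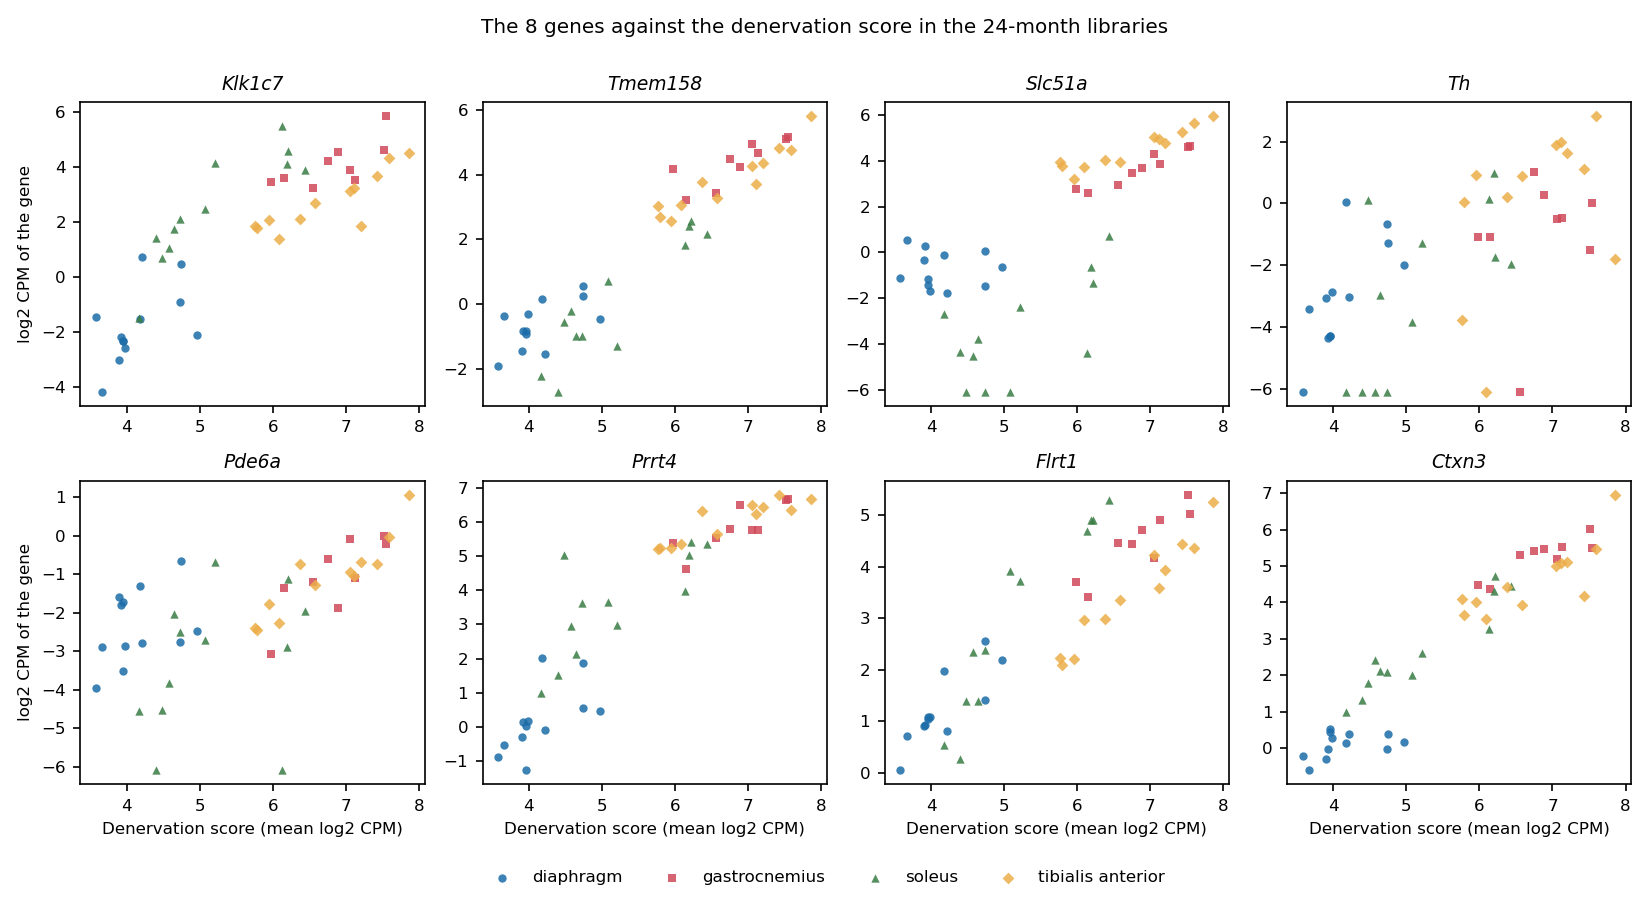
Log2 CPM of each gene (y axis) against the denervation score (x axis, mean log2 CPM of 9 genes) in the 45 libraries of 24 months, 1 point a library, with colour and shape for the muscle. Tibialis anterior points form a rising band for 7 of the 8 genes, soleus points fall into a group at 4.17 to 5.21 and a group at 6.13 to 6.44, and Th is scattered.

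The genes with the most similar pattern were found over the 28 means of muscle and age, with each muscle's mean removed. These means include the youngest and oldest ages, whose difference chose the 8 genes. Likeness among the 8, and to other genes that rose strongly, is therefore in part built in by that choice. Over these means 9 of the 24 nearest genes were other members of the 8, and Cdkn1a, which encodes the cell-cycle inhibitor p21, was among the 3 nearest of 4 of them: Flrt1 and Slc51a (r = 0.99 each), Tmem158 and Prrt4. Klk1c7 had Akip1 nearest (0.97), Th had Klk1c7 (0.95), Pde6a had the ribosomal protein gene Rpl3 (0.97) and Ctxn3 had Ltbp1 (0.98). Over the 45 libraries of 24 months with group means removed, a measure that age does not enter, the nearest were Chrng for Klk1c7 (0.79), Adam19 for Tmem158 (0.93), Myod1 for Slc51a (0.75) and Htt for Th (0.63). On the same libraries they were Rdh16 for Pde6a (0.66), Tmem158 for Prrt4 (0.82), Runx1 for Flrt1 (0.92) and Adap2 for Ctxn3 (0.91). These are correlations across libraries or groups that share depth and composition, given without a test.

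Other genes of the related families were called in both directions between 9 and 24 months. Of all genes, 6.53% in the gastrocnemius, 2.95% in the tibialis anterior, 1.76% in the soleus and 0.202% in the diaphragm were called lower. Of 17 other kallikrein lines none passed the filter in any muscle, so none was tested. Of the genes of bile acid and organic solute transport, 7 were tested in each fast limb muscle, 10 in the soleus and 8 in the diaphragm. Abcc2 was called higher in the gastrocnemius (1.27, limma-voom adjusted p = 0.00576). Abcb4, a phospholipid exporter, was called lower in gastrocnemius (-0.66) and tibialis anterior (-0.70), and limma-voom called none in the other muscles.

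Of 15 genes listed for catecholamine synthesis and handling and tested in each muscle, none was called higher by limma-voom in any, and 1, 5, 1 and 3 were called lower in diaphragm, gastrocnemius, soleus and tibialis anterior. The list also holds the nuclear receptor genes Nr4a1, Nr4a2 and Nr4a3, and outside the gastrocnemius only these were called lower. Nr4a3, which encodes an orphan nuclear receptor induced by adrenergic signals, changed by -1.56, -2.37, -1.37 and -1.78 in the 4 muscles, and Nr4a1 (-1.37 and -1.01) and Nr4a2 (-1.07 and -0.82) fell in gastrocnemius and tibialis anterior. Pnmt (-0.80) and Slc6a2 (-1.01) were lower in the gastrocnemius. Ddc, which acts directly after tyrosine hydroxylase, was not called in any, with changes of 0.10, -0.01, 0.31 and -0.58. Dbh, the next enzyme, was at 0 in 293 of 325 libraries.

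Of 16 genes of phototransduction and cyclic GMP turnover tested in the diaphragm and 15 in each other muscle, 1 was called in each. Pde10a was higher in gastrocnemius (0.71) and tibialis anterior (1.43), and the cyclic GMP kinases Prkg1 (-0.59, diaphragm) and Prkg2 (-0.60, soleus) were lower. Pde6b, the usual partner of Pde6a in rods, was at 0 in 301 of 325 libraries. Of 14 Flrt proteins and partners, 1 was called higher and 4 lower in the gastrocnemius, 0 and 2 in the tibialis anterior, 1 and 1 in the soleus and none in the diaphragm. The netrin receptor genes Unc5a (-1.82 and -1.78) and Unc5d (-0.86 and -0.65) were lower in gastrocnemius and tibialis anterior, Adgrl1 (-0.75) in the gastrocnemius, and Fgfr3 in gastrocnemius (-0.60) and soleus (-0.61). Flrt2 was higher in the gastrocnemius (0.65) and Unc5c in the soleus (0.79). Of 4 other cortexin and proline-rich transmembrane genes, Prrt3 was higher (1.46 and 1.68) and Ctxn1 lower (-1.06 and -0.61) in gastrocnemius and tibialis anterior, and none was called by limma-voom in the other muscles.

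Senescence-linked genes, the setting in which Tmem158 was first described, had 6 of 14 called higher in the gastrocnemius, 3 of 13 in the tibialis anterior, 3 of 14 in the soleus with Plaur lower, and 2 of 14 in the diaphragm. The cell-cycle inhibitor genes Cdkn1a (0.69, 4.15, 2.72 and 4.60 in diaphragm, gastrocnemius, soleus and tibialis anterior) and Cdkn2b (1.17, 2.04, 1.00 and 2.36) were called in all 4. Others called higher included Cdkn2a, Gdf15 and Mdm2 in the gastrocnemius, Cdkn2c in the soleus and Ccl2 in the tibialis anterior. Denervation genes, a list that also holds Cdkn1a and the 9 genes of the score, had 6, 17, 13 and 17 of 20 called higher and none lower by limma-voom, with median changes of 0.30, 2.67, 0.84 and 3.14. Among them was Chrng, the foetal acetylcholine receptor subunit (1.79, 5.28, 1.73 and 6.23). Chrna1 had values of 0.20 (not called), 4.91, 1.05 and 4.52. These lists were drawn up with earlier results of these libraries known, and the genes named from them were chosen after their values were seen.

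Markers of the cells in which Th, Pde6a and Klk1c7 are best known summed to a few CPM or less in both fast limb muscles at 9 and 24 months. For Th, 9 of 10 sympathetic neuron markers were listed. Their summed CPM was 2.11 to 3.28 at 9 months and 1.83 to 3.87 at 24 months in the tibialis anterior, 2.57 to 4.35 and 2.0 to 3.57 in the gastrocnemius, 3.07 to 5.10 and 3.11 to 7.03 in the soleus, and 5.12 to 10.2 and 4.54 to 9.10 in the diaphragm. Dbh, Phox2a, Hand2, Chrna3 and Chrnb4 were at 0 in 227 to 313 of 325 libraries. For Pde6a, 11 of 12 photoreceptor markers were listed. Their sum was 0.447 to 1.09 and 0.547 to 1.63 CPM in the tibialis anterior, 0.606 to 1.29 and 0.529 to 1.62 in the gastrocnemius, 6.68 to 29.8 and 4.02 to 25.5 in the soleus, and 6.71 to 24.5 and 8.36 to 33.9 in the diaphragm. Rp1 alone reached 50.7 CPM, no other passed 2.39, and the rod transcription factor genes Crx and Nrl were at 0 in 323 and 321 libraries. For Klk1c7, 8 of 10 markers of salivary and other exocrine gland were listed, with sums of 1.84 to 6.02 and 0.640 to 2.90 CPM in the gastrocnemius, 0.850 to 4.43 and 1.53 to 4.77 in the tibialis anterior, 1.30 to 2.58 and 0.597 to 4.04 in the soleus, and 18.3 to 23.6 and 17.3 to 23.9 in the diaphragm. Amy1a reached 30.8 CPM, and Klk1, Klk1c10 and Prol1 were at 0 in 256, 319 and 318 libraries. Klk1 and Klk1c10 are kallikreins whose reads could have been counted at Klk1c7, so their values are a limited measure of gland.

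The summed markers of muscle fibre (9 of 10 listed) had medians of 202127 CPM at 9 months and 141352 at 24 months in the gastrocnemius, 221193 and 185414 in the tibialis anterior, 96285 and 90043 in the soleus and 110120 and 103213 in the diaphragm. Summed macrophage markers (9 of 9 listed, no marker at 0 throughout a group) had medians of 213 CPM at 9 months and 287 at 24 months in the gastrocnemius, 124 and 167 in the tibialis anterior, 362 and 403 in the soleus and 308 and 381 in the diaphragm. Adipocyte markers (8 of 8 listed) went from a median of 176 to 282 CPM in the soleus, with ranges of 112 to 225 and 227 to 416 that did not overlap, and from 97.9 to 90.1 in the gastrocnemius, 72.9 to 82.8 in the tibialis anterior and 194 to 276 in the diaphragm. Schwann cell markers (8 of 8) had medians of 69.7 and 63.1 in the gastrocnemius, 68.0 and 67.7 in the tibialis anterior, 138 and 147 in the soleus and 130 and 150 in the diaphragm. Satellite cell markers (7 of 7) had medians of 50.8 and 56.5, 50.7 and 49.4, 91.3 and 85.4 and 66.9 and 70.5 in the same order. T cell markers (8 of 8) had medians of 12.7 and 15.1, 7.37 and 9.26, 17.7 and 22.0 and 18.4 and 20.3, B cell markers (5 of 6) 0.193 and 0.249, 0.199 and 0.259, 0.364 and 0.417 and 1.08 and 2.90, and red cell markers (6 of 7) 291 and 204, 268 and 241, 256 and 208 and 739 and 660. The part of these cell types in the changes of the 8 genes was not tested.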

How the data were processed

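Rats came from a commercial breeder and the tissues of an age were taken on the same day. The authors made stranded total RNA libraries after removal of ribosomal RNA, sequenced them as paired ends, aligned the reads to the Rnor_6.0 rat reference in ArrayStudio with a RefSeq-based gene model, and deposited raw gene counts for each library. Each file holds 17870 lines. Counts of the 494 symbols on more than 1 line were summed to 17315 genes, and each of the 8 genes had 1 line. No pair of libraries agreed within sampling noise.

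Muscle and age were read from the sample labels. Counts of the 9- to 24-month libraries of each muscle were filtered with filterByExpr (minimum count 10), scaled by TMM (edgeR 4.0.16) and fitted with limma-voom (limma 3.58.1, R 4.3.3). Genes were called at a Benjamini-Hochberg adjusted p below 0.05 over all genes tested and a change above 1.5-fold. A joint limma-voom fit tested muscle differences. The 6- and 27-month libraries entered a separate fit for description. The log2 CPM used a prior count of 0.5. Correlations used exact permutation for under 10 libraries and otherwise 100000 resamples (scipy 1.17.1). A library stood apart where its root mean square log2 deviation from its group's median exceeded 0.4. The scripts were tested on simulated data.

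The 8 genes and the gene lists were chosen with earlier results of these data known, including trends over all 7 ages, so the tested ages are not fully independent of the choice. Beyond the 8 genes, the text names list genes called in several muscles, the 3 genes nearest to each of the 8, the neighbours in the ranking from 6 to 27 months, and genes picked after their values were seen. Some genes of the ranking, the lists and the score are not reported here by name. Alternatives were edgeR, DESeq2 1.42.0, other scalings, filters and thresholds, all 7 ages in the fit, replicate blocks and libraries left out. Upstream sequences came from RefSeq, assembly GRCr8, in which 7 of the 8 symbols are current and Klk1c7 is a synonym of Klk1, although the files list Klk1 apart. The builds differ, so no position was moved between them.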

Additional observations from a re-analysis of the deposited data

Results flagged for a closer look

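A library far from the others was looked for in the 3 groups of 4 to 10 libraries, the gastrocnemius at 6, 21 and 24 months, for each of the 8 genes. Chance flags about 1 in 20 such tests, and here 3 of 24 did so, although the 8 genes share their libraries and the 24 tests are not independent. The lowest gastrocnemius library at 21 months for Klk1c7 was separated by a gap of 0.581 of the group's range, the highest at 21 months for Ctxn3 by 0.525, and the lowest at 24 months for Th by 0.646. The last was the gastrocnemius library of 24 months with Th at 0 CPM.

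The change from 9 to 24 months differed between muscles in 16 tests of the joint limma-voom fit. Gastrocnemius exceeded diaphragm by 3.84 log2 units for Ctxn3, 2.91 for Flrt1, 2.46 for Pde6a, 2.96 for Prrt4, 4.40 for Slc51a and 3.87 for Tmem158. Tibialis anterior exceeded diaphragm by 3.58 for Ctxn3, 2.69 for Flrt1, 2.18 for Pde6a, 4.16 for Prrt4, 4.66 for Slc51a and 4.14 for Tmem158. Soleus differed from gastrocnemius by -2.76 for Ctxn3 and -2.35 for Pde6a, and tibialis anterior exceeded soleus by 2.50 for Ctxn3 and 2.01 for Prrt4. The differences of Pde6a rest on low counts.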

How the results depend on the processing

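No result changed direction under any alternative run. RLE and total-count scaling left all 75 calls on single genes as they were, and leaving out each of 92 single libraries of 9 or 24 months changed 1 call, with 570 as they were. Over those fits 8 genes were called at 24 against 9 months in the gastrocnemius, 7 to 8 in the tibialis anterior, 5 in the soleus and 2 to 3 in the diaphragm. Bonferroni adjustment called 3 in the gastrocnemius and 0 in the tibialis anterior at 18 against 9 months, 0 in the diaphragm and 0 in the soleus at 24 against 9 months, and 4 in the gastrocnemius and 0 in the soleus at 24 against 21 months. It left 2 muscle differences in change for gastrocnemius and 2 for tibialis anterior against diaphragm, 1 for soleus against gastrocnemius, 0 for tibialis anterior against soleus, and 0 level differences at 9 months for each of the 6 pairs. In the soleus at 18 against 9 months edgeR called 1, DESeq2 2 and the unfiltered fit 1, and in the diaphragm at 24 against 21 months edgeR and DESeq2 each called 1. At 24 against 9 months the unfiltered fit, which tests more genes, called 4 in the diaphragm and 8 in the soleus, and in the diaphragm all 7 ages in the fit left 1 and a 2-fold threshold 1. The 2 soleus calls at 24 against 21 months were the least stable, with 0 left without a filter, with all 7 ages, without the third number series and without the library that stood apart. Sample quality weights left 1 difference for soleus against gastrocnemius, and total-count scaling left 0 level differences for tibialis anterior against diaphragm. Correlation with the denervation score passed for 2 genes in the gastrocnemius without the 2 farthest libraries, and for 0 in the diaphragm and 2 in the soleus within the lower cluster. The cause of these shifts was not tested where none is given.

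Between ages of a muscle, replicate numbers did not pair the libraries: the median correlation of same-numbered libraries was 0.08, -0.01, 0.02 and 0.01 in diaphragm, gastrocnemius, soleus and tibialis anterior, and 4 of 11, 2 of 9, 3 of 12 and 2 of 12 pairs passed 0.1. A replicate block left 1 call in the soleus at 24 against 21 months, gave 1 difference in change for soleus against diaphragm (Tmem158), and took the tibialis anterior change of Klk1c7 from 21 to 24 months to 0.62, not called. Between muscles of an age, same-numbered libraries deviated together more often. At 9 and 24 months 90 of 132 same-numbered pairs passed 0.1, with medians of 0.00 to 0.28 over 12 sets of 2 muscles, and all did in 1 set. The labels do not say whether such libraries came from 1 rat. A replicate block within each age, chosen after the data were seen, called 4 changes in soleus against diaphragm and 0 levels in tibialis anterior against gastrocnemius.

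Depth limits Klk1c7 in the diaphragm, Slc51a in the soleus, Th in both and Pde6a in all but the gastrocnemius, where 9-month medians were near 0 and the fit depended on the filter. The day of collection could not be separated from age, and the count of libraries apart rests on a threshold chosen after the data were seen.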
